A study of Mus musculus with 30 samples.

Results

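Gene expression in the hypothalamus of Per3-/- and wild-type (WT) mice was compared across the genome outside the chromosomal stretch that carries Per3. Probes were kept if their position in the array files (assembly mm9) was not on chromosome 4 beyond base 148466453 and if the scanner software marked them well above background on each of the 16 hypothalamus arrays. This rule left 26999 of the 41174 probes that are not controls, standing for 17956 genes, and 206 probes of distal chromosome 4 were left out. Each of the 8 WT and 8 Per3-/- mice gave 1 array, with no pooling. All mice were adult males on a C57Bl/6J background, the WT mice being litter mates of the knockouts. The knockout line carries a PGK-NEO selection cassette in an early part of Per3, and the change is carried from the germline, with no tissue-specific driver. All mice, controls included, had lived on an ultradian cycle of 3.5 h of light and 3.5 h of darkness and were taken in cycle 17, and a single time of sampling was measured. The tissue was a small block cut around the optic chiasm that includes the suprachiasmatic nucleus, so it mixes many nuclei and bordering tissue.

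The hypothalamus controls feeding, body temperature, sleep, water balance and the pituitary, and it does so largely through neuropeptides, each made by a small group of neurons. Its suprachiasmatic nucleus is the light-entrained pacemaker of the body, in which CLOCK and BMAL1 (the product of Arntl) activate the Per and Cry genes and the PER and CRY proteins shut that activation off. PER3 is a member of this family whose loss leaves the basic rhythm running, and Dbp and Nr1d1 are output and feedback genes that the same activators drive.

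Signals are given on the log2 scale after subtracting the array's 75th percentile, so that 0 is the level of that percentile and a difference of 1 is a doubling. The 75th percentile lay between 1408 and 2207 intensity units, 67.9% to 75.3% of the probes on WT arrays and 69.1% to 75.6% on Per3-/- arrays were well above background, and arrays correlated at 0.986 to 0.998 over the kept probes. The labels were checked on genes of the stretch left out. Prdm16 was lower in Per3-/- by 2.86 log2 units (SE 0.11, limma adjusted p = 1.49e-07), with no overlap between the groups, and Per3 itself was lower by 0.51 (SE 0.093, adjusted p = 0.213), with 7 of 8 Per3-/- mice under every WT mouse. Avp, Oxt, Trh, Agrp, Npy, Pomc, Vip and Six6 were among the genes well above background on every array, as the filter required. Their levels were not compared with the eye, so they do not check the tissue label.

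A few blocks stood apart from the rest in genes known from other tissues or cells, and the source of these signals was not tested. Per3-/- mouse 1 had pituitary hormone genes far above the others. Gh, growth hormone, was at 8.21 in that mouse and between -5.11 and -3.55 in the other Per3-/- mice, and among WT mice only mouse 5 was high, at 3.60. Pomc was at 8.66 in Per3-/- mouse 1 and at 3.34 or less in every other mouse of the study. Per3-/- mouse 7 had Cdhr1 at 2.76, against -2.43 or less in the other 15 mice, and Doc2g, Shisa3, Sp8 and Tbx21, which are known from the olfactory bulb, were highest in the same mouse. WT mouse 6 had the antibody chain gene Jchain at 0.21, against -4.14 or less elsewhere. Genes of the choroid plexus, the tissue that makes cerebrospinal fluid, were high in WT mice 2, 5 and 6 and in Per3-/- mice 1, 3, 4 and 6. Ttr, transthyretin, ranged from -6.29 to 2.51 in WT and from -5.72 to 3.03 in Per3-/- mice. These genes were looked at after their values were seen. Probes at the adjusted threshold and list genes that lose their threshold without Per3-/- mice 1 and 7 are marked below. That fit is not given for the motif counts, the genes of several probes, the chromosomes or the eye.

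**Figure D1:**
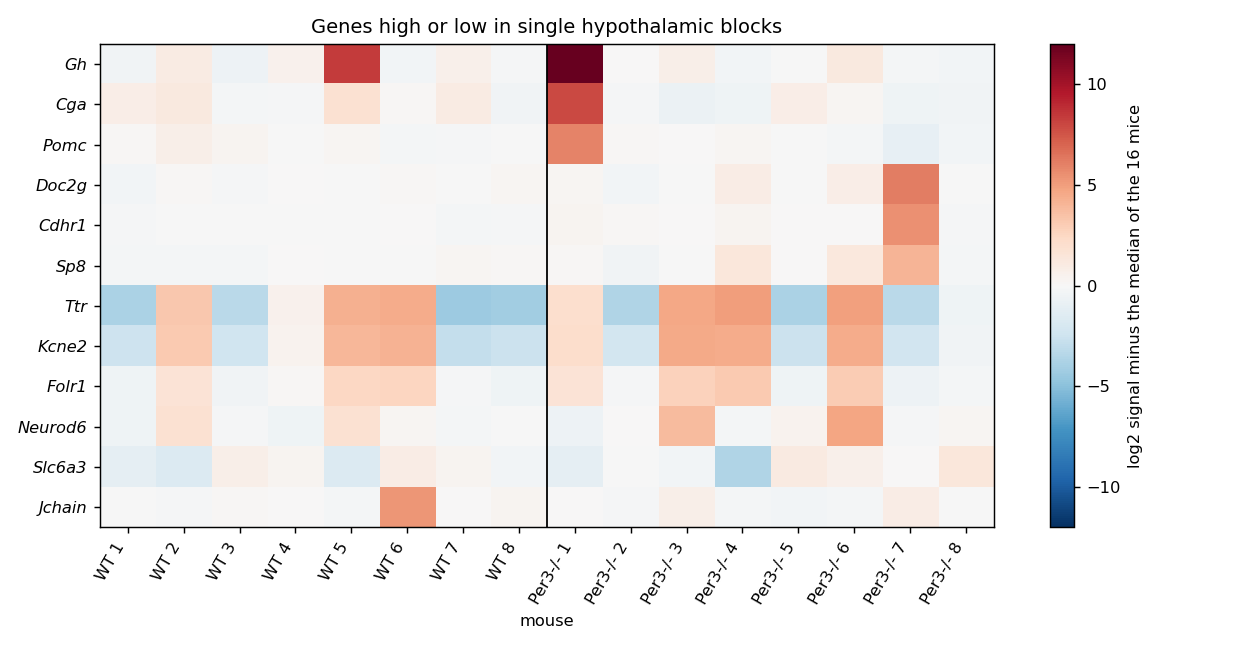
Heat map of 12 genes (rows) in the 16 mice (columns, WT to the left of the line, Per3-/- to the right), each value being the log2 signal minus the gene's median over the mice. Gh, Cga and Pomc are high in Per3-/- mouse 1, Doc2g, Cdhr1 and Sp8 in Per3-/- mouse 7, Jchain in WT mouse 6, and Ttr, Kcne2 and Folr1 in mice of both genotypes.

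Outside distal chromosome 4 the 2 genotypes differed little. The median difference over the 26999 probes, Per3-/- minus WT, was -0.0064 log2 units, and the middle of the distribution was narrow, with the 5th percentile at -0.128 and the 95th at 0.152. The median standard error was 0.062. For 99.2% of the probes the 95% confidence interval of the difference lay within a 2-fold change in either direction, and for 94.98% it lay within 0.5 log2 units, a 1.41-fold change. At the median standard error a difference of 0.41 log2 units, or 1.33-fold, was needed to pass the adjusted threshold.

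By limma with the slide as a block, 5 probes passed an adjusted p of 0.05, which is 0.0185% of those tested, 3 higher (0.0111%) and 2 lower (0.00741%) in Per3-/- mice. Both lower probes measured Noc2l, which RefSeq (GRCm38.p6) lists in the stretch left out. By that listing the 3 higher probes were the only calls outside the stretch. Without adjustment, 1042 probes had a p under 0.05, 3.86% of those tested, where a uniform distribution of p gives 1350. Of them 464 were higher (1.72%) and 578 lower (2.14%). The split depended on the scaling, since 44.5% of these probes were higher with the 75th percentile, 33.5% of 929 with the array median and 15.4% of 1352 with normexp background correction. A p under 0.01 was reached by 124 probes, 0.459% of those tested and 0.233% higher and 0.226% lower, against 270 for uniform p. Leaving out Per3-/- mice 1 and 7 together, which was chosen after the data were seen, left 3 probes at the adjusted threshold and 658 at an unadjusted p under 0.05.

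**Figure D2:**
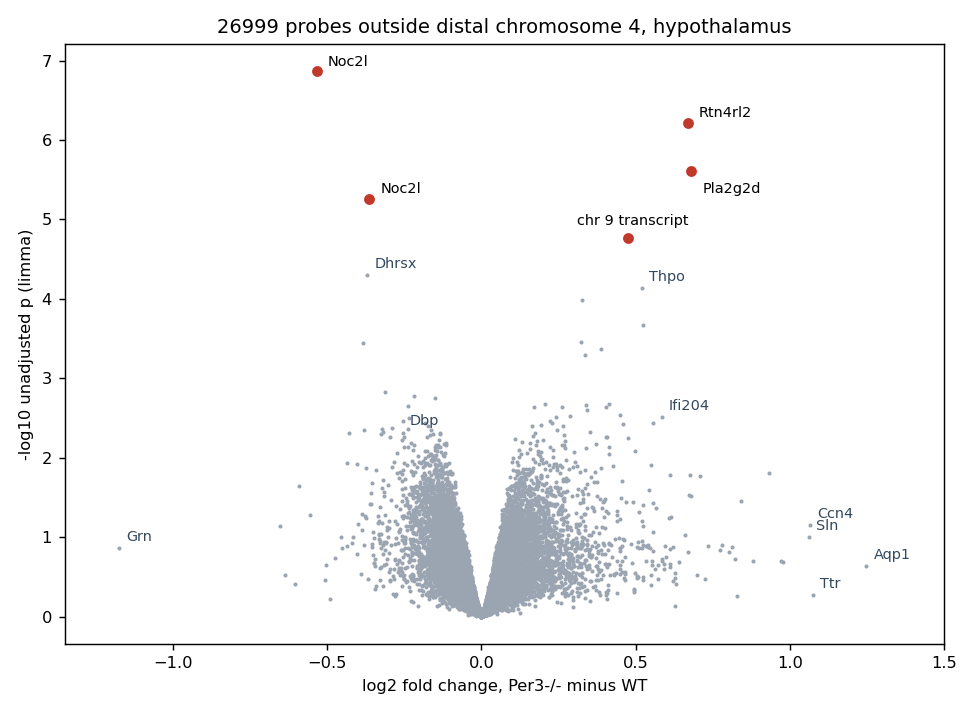
Each point is 1 of the 26999 probes, with the log2 difference between Per3-/- and WT on the x axis and -log10 of the unadjusted limma p on the y axis. The 5 probes at an adjusted p under 0.05 are red, and both of the lower ones measure Noc2l. The probes of largest fold (Aqp1, Ttr, Ccn4, Sln and Grn) lie low, at high p.

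The probe of lowest p measured Noc2l, which encodes a nuclear protein that binds histones and restrains their acetylation. In WT mice it ranged from 0.24 to 0.65 with a median of 0.55, and in Per3-/- mice from -0.26 to 0.12 with a median of -0.03. No Per3-/- mouse reached the lowest WT mouse. The mean fell by 0.53 log2 units (SE 0.051, 1.45-fold, adjusted p = 0.00149). The second Noc2l probe fell by 0.36 (SE 0.049, adjusted p = 0.0174), also without overlap, but it stayed under the adjusted threshold in only 7 of the 16 fits that leave out 1 array, with the highest adjusted p at 0.0705, and was at 0.0634 without Per3-/- mice 1 and 7. The array files give no position for either Noc2l probe, which is the sole reason they were kept: RefSeq (GRCm38.p6) lists Noc2l on chromosome 4, among the genes of the stretch that was left out.

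Rtn4rl2, a receptor on the neuron surface from the family of the Nogo receptor, was higher in Per3-/- mice. Its probe (chromosome 2, 84720564 to 84720623) ranged from -4.38 to -3.66 in WT mice with a median of -4.16, and from -3.74 to -3.16 in Per3-/- mice with a median of -3.42. Of the 8 Per3-/- mice 7 lay above every WT mouse. The difference of 0.67 (SE 0.073, 1.59-fold, adjusted p = 0.00313) held on each of the 4 slides, where it was between 0.59 and 0.79, and in all 16 fits that leave out 1 array. It ended with the methods' t-test, at an adjusted p = 0.081.

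Pla2g2d, a secreted phospholipase A2 known from immune cells of lymphoid tissue, was higher by 0.68 (SE 0.084, 1.60-fold, adjusted p = 0.00987). Its WT values ran from -5.40 to -4.74 with a median of -5.16 and its Per3-/- values from -4.66 to -4.08 with a median of -4.49. The groups did not overlap, as for 5 probes or 0.0185% of those tested, 2 higher (0.00741%) and 3 lower (0.0111%). The lower ones were both Noc2l probes and a probe of Dhrsx. The call of Pla2g2d held in all 16 fits that leave out 1 array. This probe lies on chromosome 4 itself (138337867 to 138337926), 10.1 Mb before the stretch that was left out. Both Rtn4rl2 and Pla2g2d were dim, and with normexp background correction their differences were 0.33 and 0.20, with adjusted p = 0.511 for each. The call of Pla2g2d also ended with quantile scaling (adjusted p = 0.0565) and with the replicate block (adjusted p = 0.178).

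The fifth probe matched the transcript ENSMUST00000080911, for which the files name no gene (chromosome 9, 44287070 to 44287129). It was higher by 0.47 (SE 0.071, adjusted p = 0.0498), with WT values from -2.18 to -1.38 (median -1.72) and Per3-/- values from -1.60 to -1.11 (median -1.21). Of the 8 Per3-/- mice 7 lay above every WT mouse. The call held in 2 of the 16 fits without 1 array, and it ended without Per3-/- mice 1 and 7 (limma adjusted p = 0.0987). For each of these 5 probes the exact permutation test within slides gave 0.0015, the smallest p that its 1296 arrangements allow (two-sided). The probes were chosen for low p on the same arrays, so this adds no support. Gm7104 and Snorc, at adjusted p = 0.965 and 0.505 in limma, also reached that smallest p.

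**Figure D3:**
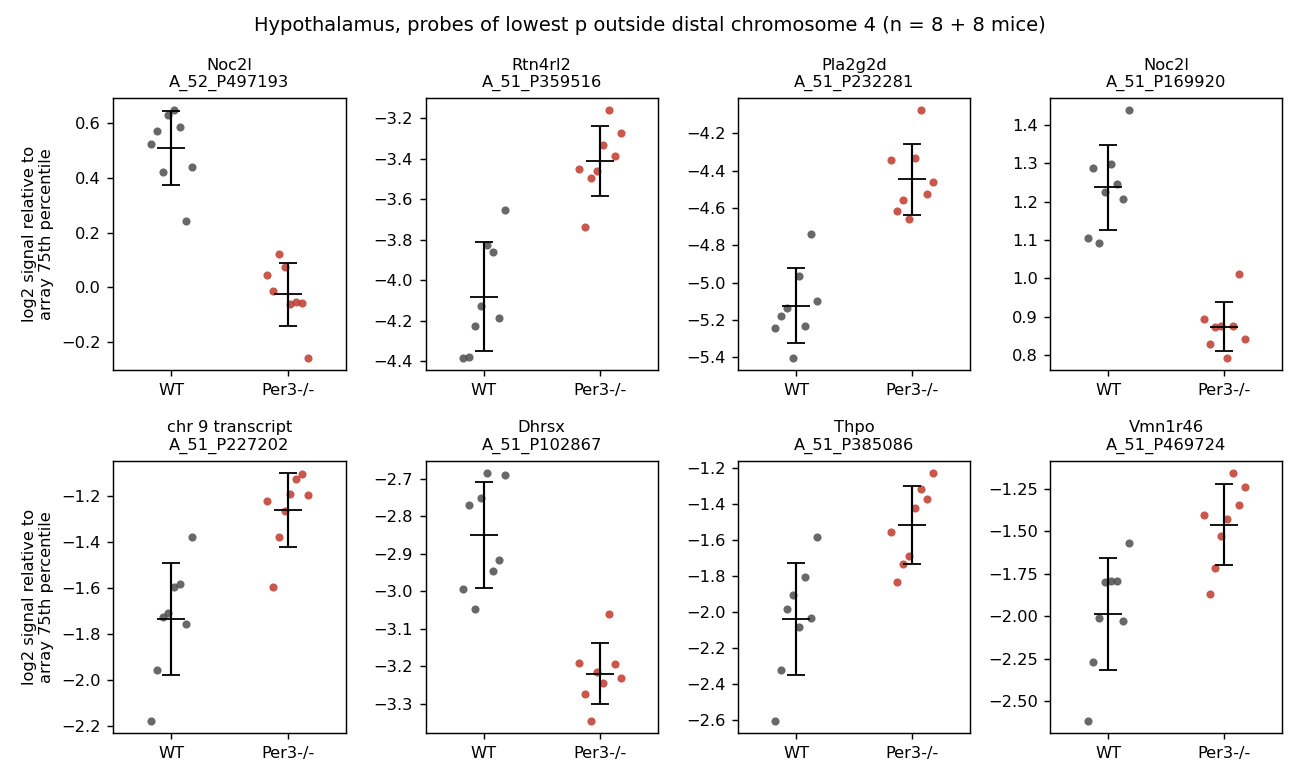
Log2 signal relative to the array's 75th percentile (y axis) in each of 8 WT (grey) and 8 Per3-/- (red) mice for the 5 probes at an adjusted p under 0.05 and for Dhrsx, Thpo and Vmn1r46. Points run from mouse 1 on the left to mouse 8, and the horizontal bar and whiskers are the mean and SD. The groups do not overlap for Noc2l, Pla2g2d and Dhrsx.

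The next probes by p missed the adjusted threshold. Dhrsx, a short-chain dehydrogenase for which the files give no position and which RefSeq lists on chromosome 4, had WT values from -3.05 to -2.68 (median -2.84) and Per3-/- values from -3.34 to -3.06 (median -3.22). All 8 Per3-/- mice lay under every WT mouse, and the difference was -0.37 (SE 0.062, limma adjusted p = 0.116), with the second Dhrsx probe at -0.18. Thpo, the platelet growth factor thrombopoietin, differed by 0.52 (SE 0.090, adjusted p = 0.151), but its second probe was at -0.04. Slc4a9, an anion exchanger, differed by 0.32 (SE 0.058, adjusted p = 0.202), and Vmn1r46, a vomeronasal receptor, by 0.52 (SE 0.10, adjusted p = 0.324). The other higher probes among the 10 of lowest p were 1700021J08Rik (0.32), Lce1b (0.39), Cecr2 (0.34) and Ucma (0.41). The other lower ones were Snorc (-0.38), Jph2 (-0.31), Faap100 (-0.22), Gm7104 (-0.15), the array's own transcript NAP021952-001 (-0.24), Nkpd1 (-0.23) and Susd2 (-0.25).

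The probes that were higher in Per3-/- mice shared an order among the WT mice. In 8 of these 10 probes the lowest WT value was that of mouse 1 or 2, both on the first slide, and the highest that of WT mouse 8. Rtn4rl2, Thpo, Vmn1r46, Slc4a9, Lce1b, Cecr2, 1700021J08Rik and the chromosome 9 transcript were these 8, and Pla2g2d and Ucma were the exceptions. WT arrays 1 and 2 had 69.2% and 67.9% of probes well above background and WT array 8 had 75.3%, and the part of this in the differences was not tested. Without the slide block Rtn4rl2 remained at the adjusted threshold and the chromosome 9 transcript did not.

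Large folds came with large spread. The 5 largest positive differences were those of Aqp1 (1.25, SE 1.0), Ttr (1.07, SE 1.7), Ccn4 (1.07, SE 0.54), Sln (1.06, SE 0.60) and Doc2g (0.98, SE 0.73), each at an adjusted p = 0.965 in limma. Aqp1, a water channel of choroid plexus epithelium, ranged from -4.31 to -0.03 in WT and from -4.13 to 1.25 in Per3-/- mice, and the ranges overlapped widely. Its highest value was that of Per3-/- mouse 7, in which the choroid plexus gene Ttr was low, at -5.23. Ccn4, a matricellular protein of Wnt signalling, was at -0.12 in Per3-/- mouse 7 and at -3.16 or less in every other mouse. Sln, sarcolipin, was lowest in WT mouse 2, at -3.57. Without Per3-/- mice 1 and 7 the difference of Ccn4 was 0.33, that of Doc2g 0.16 and that of Aqp1 0.49. In the other direction stood a probe of Grn, progranulin (-1.17, SE 0.74), whose second probe differed by 0.04, and Adora2a, the adenosine receptor of striatal neurons (-0.65, SE 0.33), whose second probe differed by -0.01. AF152371 (-0.64) and Jchain (-0.60) were high in WT mouse 6. Aoc1, a diamine oxidase, differed by -0.59 (SE 0.23) at an unadjusted p, in the same limma fit, of 0.0227. In all, 92 probes differed by over 0.5 log2 units, of which 21 passed an unadjusted p of 0.05 and 3 the adjusted threshold.

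Gene lists were then described 1 probe to a gene, taking the probe of highest signal. Of all 17956 genes 3.83% had an unadjusted p under 0.05, 1.79% higher and 2.04% lower in Per3-/- mice, 48.4% had a positive difference, and the median was -0.0026. The 42 lists held 848 measured genes, of which 12 were higher and 27 lower at an unadjusted p under 0.05, or 4.60%. None passed the adjusted threshold, which 0.0223% of all genes did, the lowest adjusted p in limma being 0.965. The values below for single list genes are therefore descriptions at an unadjusted p, with limma's standard error. Without Per3-/- mice 1 and 7 all 39 kept their sign, which the shared arrays made likely. Of the 39, 24 no longer had an unadjusted p under 0.05. In a bulk sample fewer cells of a type and less RNA per cell cannot be told apart.

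**Figure D4:**
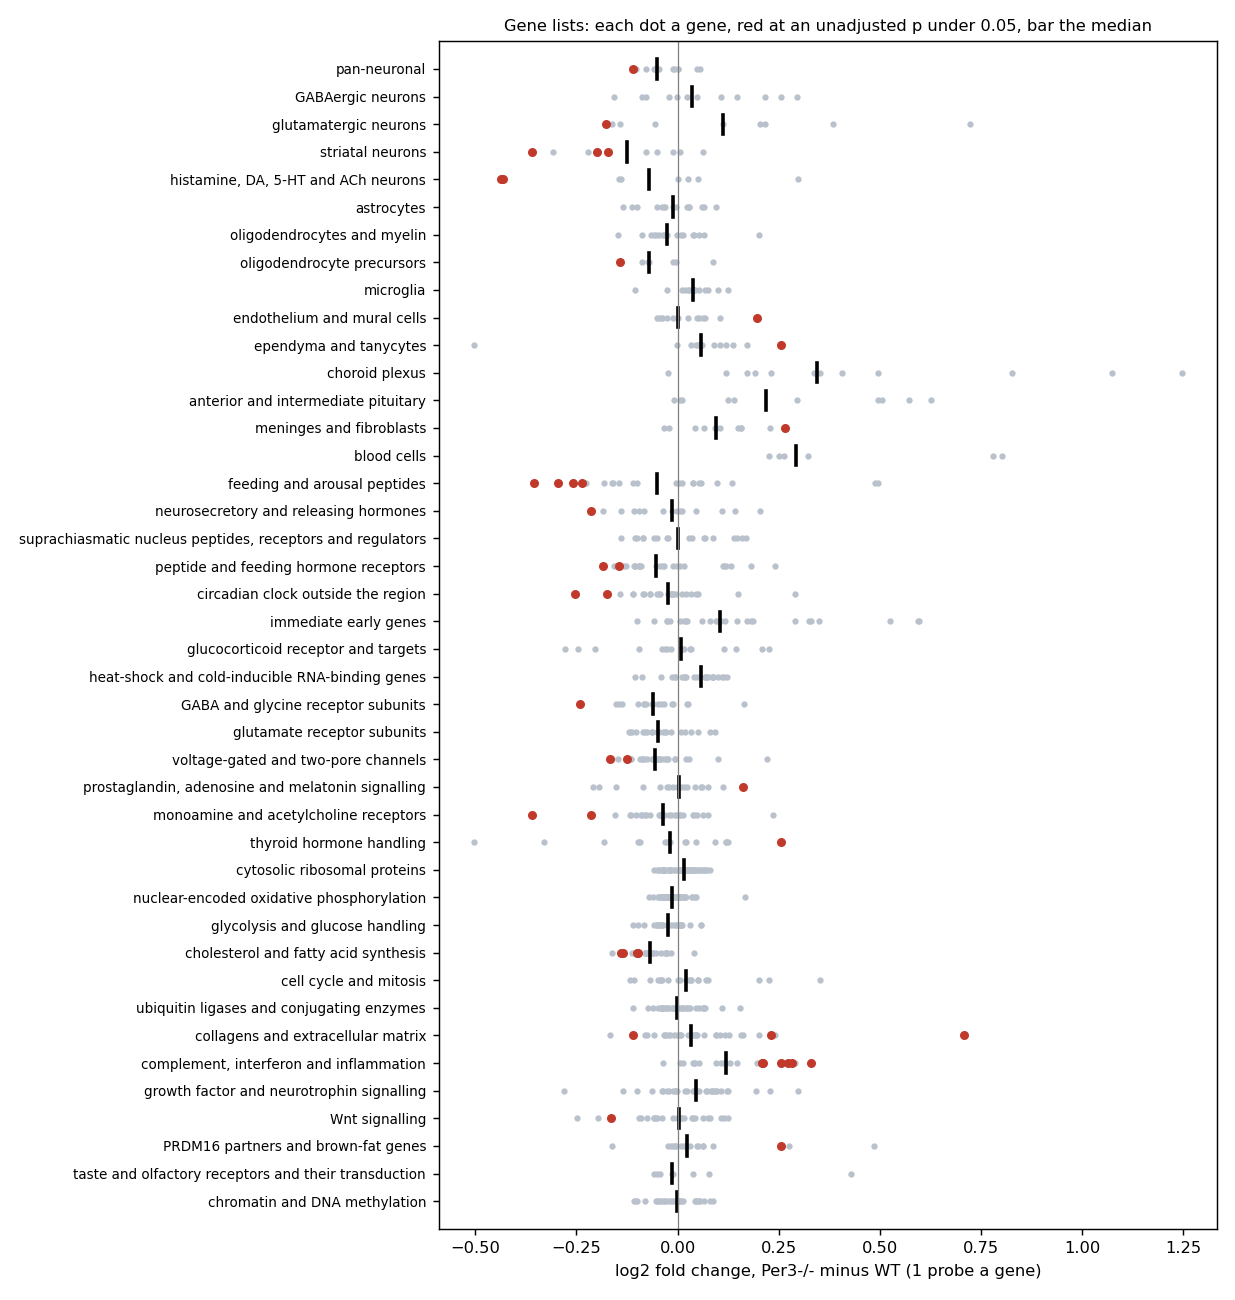
Log2 difference between Per3-/- and WT (x axis) for each measured gene of the 42 lists (rows), 1 probe a gene. Red dots are genes at an unadjusted p under 0.05 and black bars are medians, which lie between -0.125 (striatal neurons) and 0.344 (choroid plexus).

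All 25 listed clock genes outside the excluded stretch were measured, and 2 were lower in Per3-/- mice at an unadjusted p under 0.05, with a list median of -0.024. Dbp, a transcription factor that oscillates strongly under direct control of CLOCK and BMAL1, had WT values from 4.58 to 5.23 (median 4.84) and Per3-/- values from 4.35 to 4.83 (median 4.66). All 8 Per3-/- mice lay under the WT median and 3 lay under every WT mouse. The difference was -0.25 (SE 0.075, limma unadjusted p = 0.00485), negative on each of the 4 slides (-0.50 to -0.09), and it kept an unadjusted p under 0.05 in all 26 alternative fits. In the whole eye, which the paper took from the same mice, Dbp differed by -0.34 (limma unadjusted p = 0.000603). Nr1d1, the repressor REV-ERB alpha, differed by -0.17 (SE 0.078, unadjusted p = 0.0441), with 2 of its 3 probes under an unadjusted p of 0.05, the sign changing on 1 slide, and 13 of 26 alternatives under that threshold.

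The core of the clock was close to equal in both genotypes. Clock differed by 0.05 (SE 0.063), Npas2, its paralogue, by -0.11 (SE 0.066), and Arntl by 0.04 (SE 0.031). Named after their values were seen, Per1 (0.01), Per2 (-0.01), Cry1 (-0.01) and Cry2 (-0.04) all lay within 0.05 of 0 on the probe of highest signal. The second probes of Cry1 and Cry2 were at 0.22 and -0.15, neither at an unadjusted p under 0.05. The list of suprachiasmatic peptides, receptors and regulators had 18 measured genes, none at an unadjusted p under 0.05, and a median of 0.002. Vip, the peptide that couples its neurons, differed by 0.16 (SE 0.16), Grp by -0.06 (SE 0.13) and Prok2, an output peptide, by 0.17 (SE 0.21).

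**Figure D5:**
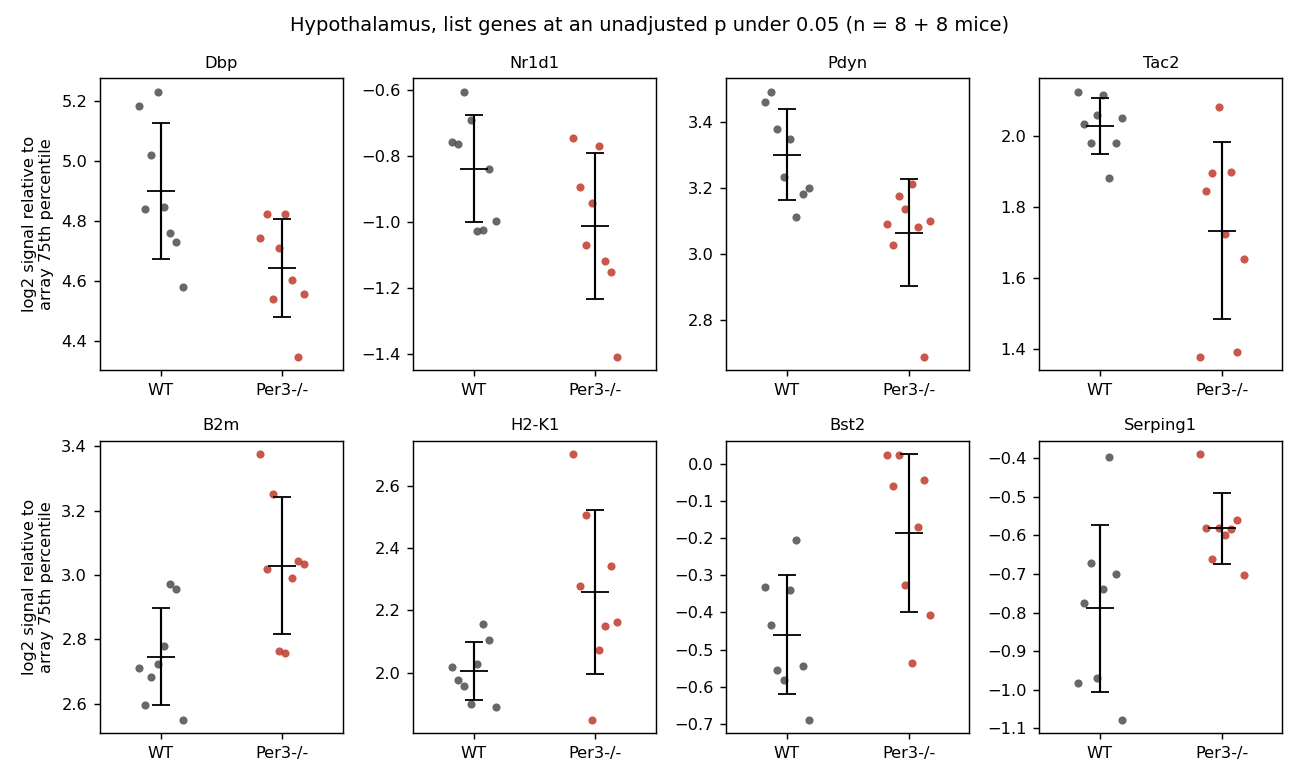
Log2 signal relative to the array's 75th percentile (y axis) of 8 list genes at an unadjusted p under 0.05, in 8 WT (grey) and 8 Per3-/- (red) mice, with mean and SD; points run from mouse 1 to mouse 8. Dbp, Nr1d1, Pdyn and Tac2 are lower and B2m, H2-K1, Bst2 and Serping1 higher on average in Per3-/- mice, and in each panel the groups overlap.

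Among feeding and arousal peptides 22 of 24 listed genes were measured, 4 of them lower at an unadjusted p under 0.05 and none higher, with a median of -0.052. Pdyn, the dynorphin precursor, had WT values from 3.11 to 3.49 (median 3.29) and Per3-/- values from 2.69 to 3.21 (median 3.10). All 8 Per3-/- mice lay under the WT median, and the difference was -0.24 (SE 0.068, limma unadjusted p = 0.0043). Tac2, which encodes neurokinin B, spanned only 1.88 to 2.12 in WT mice but 1.38 to 2.08 in Per3-/- mice. Its difference was -0.29 (SE 0.088), with 5 Per3-/- mice under every WT mouse. Tac1, the precursor of substance P, differed by -0.26 (SE 0.10), and Npvf, the precursor of the RFamide peptides that restrain gonadotropin release, by -0.36 (SE 0.14). Pdyn and Tac2 kept an unadjusted p under 0.05 in all 26 alternatives, Tac1 in 24 and Npvf in 25, but without Per3-/- mice 1 and 7 the list held 2 such genes in place of 4.

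Agrp and Npy, the peptides of the hunger-driving neurons of the arcuate nucleus, differed by -0.10 (SE 0.12) and 0.10 (SE 0.19). Pomc, their satiety counterpart, differed by 0.49 (SE 0.69), a mean raised by Per3-/- mouse 1. Hcrt, the wake-promoting orexin precursor, and Pmch, melanin-concentrating hormone, were at -0.16 and -0.18 without passing an unadjusted p of 0.05, and both were named after their values were seen. Of 15 measured neurosecretory and releasing hormone genes Kiss1, kisspeptin, was the 1 under that threshold, at -0.21 (SE 0.096, 10 of 26 alternatives, and not without Per3-/- mice 1 and 7). Avp differed by -0.14 (SE 0.12), Oxt by -0.10 (SE 0.080) and Trh by 0.04 (SE 0.081).

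Of 27 measured peptide receptors 19 had a negative and 8 a positive difference, with a median of -0.053 and 2 lower at an unadjusted p under 0.05. The difference farthest from 0 was positive, that of Crhr1, a receptor of corticotropin-releasing hormone (0.24, SE 0.14), which did not pass and was named after its values were seen. Tacr1, the receptor of substance P, differed by -0.15 (SE 0.052), though its second probe was at -0.01, and Oprm1, the mu opioid receptor, by -0.18 (SE 0.076). The melanocortin receptors Mc3r and Mc4r differed by 0.12 (SE 0.125) and by less than 0.01. Without 1 array this list held between 1 and 5 lower genes.

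Of 15 pan-neuronal genes 12 had a negative difference and 1, the surface protein Thy1 (-0.11, SE 0.046), had an unadjusted p under 0.05, with a list median of -0.051. Without Per3-/- mice 1 and 7 the median was -0.013 and no gene passed. Summed over the list on the linear scale, the signal ran from 649 to 755 in WT and from 627 to 722 in Per3-/- mice, in units of the array's 75th percentile. Snap25 and Rbfox3 differed by less than 0.01 and Syt1 by -0.08 (SE 0.066).

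Of 12 glutamatergic markers 9 were measured, 5 with a positive difference, and the median was 0.111. Slc17a6, the vesicular glutamate transporter of the hypothalamus and thalamus, differed by -0.18 (SE 0.075) and 5 of 8 Per3-/- mice lay under every WT mouse. It kept an unadjusted p under 0.05 in 17 of 26 alternatives, and was at -0.10 without Per3-/- mice 1 and 7 (limma unadjusted p = 0.166). Slc17a7, the cortical form, differed by 0.21 (SE 0.20). None of 12 GABAergic markers passed an unadjusted p of 0.05: Gad1 differed by 0.15 (SE 0.18), Gad2 and Slc32a1 by 0.02 or less. The summed GABAergic signal was 174 in Per3-/- mouse 7 and at most 132 in the other Per3-/- mice, and without mice 1 and 7 the list median went from 0.036 to -0.028.

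Striatal markers had the lowest list median, -0.125 over 10 genes, with 3 lower at an unadjusted p under 0.05. Drd1, the D1 dopamine receptor, ranged from -2.99 to -1.89 in WT mice and from -3.22 to -2.63 in Per3-/- mice, a difference of -0.36 (SE 0.155). Rgs9, a brake on dopamine receptor signalling, differed by -0.20 (SE 0.087) and Pde10a, the striatal phosphodiesterase, by -0.17 (SE 0.066). The markers Ppp1r1b (-0.31, SE 0.16) and Drd2 (0.06, SE 0.16) did not pass. The count fell to 0 when Per3-/- mouse 2 was left out and to 1 without any of Per3-/- mice 4, 5 and 8 or WT mice 4, 6 and 8, and it was 2 without any of Per3-/- mice 1 and 7 or WT mice 1 and 7. The summed striatal signal ran from 8.08 to 10.03 in WT and from 7.16 to 9.19 in Per3-/- mice, and the part of the cut of the block in it was not tested.

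Of 8 measured genes of histamine, dopamine, serotonin and acetylcholine neurons 3 had a positive and 5 a negative difference, with a median of -0.070. The 2 at an unadjusted p under 0.05 were cholinergic transporters, both lower. Chat, the cholinergic enzyme gene on the same list, was measured and did not pass. Slc5a7, which takes choline into nerve endings, had WT values from -1.96 to -1.20 (median -1.54) and Per3-/- values from -2.69 to -1.64 (median -1.89). All 8 Per3-/- mice lay under the WT median and the difference was -0.44 (SE 0.15, limma unadjusted p = 0.0117). Slc18a3, which loads acetylcholine into vesicles, had WT values from -5.40 to -4.92 and Per3-/- values from -6.15 to -4.96. In 6 of 8 Per3-/- mice it lay under every WT mouse, and the difference was -0.43 (SE 0.13, unadjusted p = 0.00496). Both kept an unadjusted p under 0.05 in all 26 alternatives. Hdc, which makes histamine, differed by -0.15 (SE 0.12), and Th, which makes the dopamine precursor, by 0.30 (SE 0.26).

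Of 15 astrocyte genes, none passed an unadjusted p of 0.05 and the median was -0.011, with Gfap at 0.09 (SE 0.080) and Aqp4 at -0.11 (SE 0.082). None of 17 oligodendrocyte and myelin genes passed either (median -0.027), with Mbp at -0.03. Of 7 markers of oligodendrocyte precursors Cspg4, the NG2 proteoglycan, was lower by both its probes, at -0.14 (SE 0.060) and -0.18. Without Per3-/- mice 1 and 7 the list median went from -0.072 to -0.002 and Cspg4 no longer passed (limma unadjusted p = 0.0513). Microglial genes had a positive difference in 13 of 15 cases with a median of 0.038, and none passed. Aif1 differed by 0.05 (SE 0.072), Cx3cr1 by 0.04 (SE 0.12) and P2ry12 by 0.12 (SE 0.097).

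Of 15 endothelial and mural genes Kdr, the main VEGF receptor, was higher by 0.20 (SE 0.082, 17 of 26 alternatives). Of 14 genes of ependyma and tanycytes, the cells that line the third ventricle, Dio2 was higher. It encodes the deiodinase that makes active thyroid hormone and is a tanycyte enzyme in the hypothalamus. Its WT values ran from 1.02 to 1.62 (median 1.40) and its Per3-/- values from 1.37 to 2.01 (median 1.57), and 4 of 8 Per3-/- mice lay above every WT mouse. The difference was 0.26 (SE 0.088, limma unadjusted p = 0.0124), positive on each slide and under 0.05 in 25 of 26 alternatives. The exception was the fit without Per3-/- mice 1 and 7, where it was 0.20 (limma unadjusted p = 0.0578). Rax, a tanycyte transcription factor, differed by 0.17 (SE 0.12). The other deiodinase genes Dio1 (0.09) and Dio3 (-0.33) had standard errors over 0.2. Slc6a13, a GABA transporter of the meninges, differed by 0.26 (SE 0.11), with all 8 Per3-/- mice above the WT median. Without Per3-/- mice 1 and 7 neither Kdr (0.13, limma unadjusted p = 0.108) nor Slc6a13 (0.19, unadjusted p = 0.113) passed.

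The lists of choroid plexus, pituitary and blood genes were the widest. Of 12 measured choroid plexus genes 11 had a positive difference and none passed an unadjusted p of 0.05, with a median of 0.344 and a median standard error of 0.62. Their summed signal ran from 3.81 to 23.8 in WT and from 4.15 to 29.3 in Per3-/- mice. The 10 measured pituitary genes had a median of 0.218, which became -0.070 without Per3-/- mice 1 and 7, and Prl, Pou1f1 and Tbx19 were not well above background on every array. All 6 measured blood genes had a positive difference, with a median of 0.293, none at an unadjusted p under 0.05, and a summed signal of 42.2 to 71.9 in WT and 38.7 to 121 in Per3-/- mice.

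The list with the largest share of genes under an unadjusted p of 0.05 in the higher direction was that of complement, interferon and inflammation. Of 21 measured genes 20 had a positive difference, the median was 0.119, and 6 were higher and none lower, against 1.79% higher over all genes. B2m and H2-K1 encode both chains of a class I MHC molecule, Bst2 an interferon-induced protein that tethers budding virus, C3 and Serping1 a complement component and the inhibitor of its first step, and Tlr4 the receptor for bacterial endotoxin. B2m ranged from 2.55 to 2.97 in WT mice (median 2.72) and from 2.76 to 3.37 in Per3-/- mice (median 3.03), and 6 of 8 Per3-/- mice lay above every WT mouse. It differed by 0.28 (SE 0.099, limma unadjusted p = 0.014), and its second probe by 0.30 (SE 0.097). H2-K1 ranged from 1.89 to 2.16 in WT and from 1.85 to 2.70 in Per3-/- mice, a difference of 0.25 (SE 0.10), with 3 of its 4 probes under an unadjusted p of 0.05. Bst2 differed by 0.27 (SE 0.091), Tlr4 by 0.33 (SE 0.13), and C3 and Serping1 each by 0.21 (SE 0.094 and 0.083). With normexp background correction Tlr4 differed by only 0.05 (limma unadjusted p = 0.573).

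This list was sensitive to the mice included. The median stayed between 0.096 and 0.161 in all 26 alternatives, but the count of higher genes was 3 without Per3-/- mouse 7 or without WT mouse 8 and 0 without both Per3-/- mice 1 and 7. On the third slide the differences of B2m, Bst2, Serping1 and Tlr4 were at or slightly below 0, at -0.08 to 0.00. The complement genes C1qa, C1qb and C1qc, which microglia make and which were named after their values were seen, were each at 0.04. Summed microglial signal ran from 36.2 to 59.1 in WT and from 42.7 to 55.8 in Per3-/- mice, and the blood sums given above were highest in Per3-/- mouse 2; the part of these cells in the difference was not tested.

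Genes with an interferon-stimulated response element near their start were looked at across the genome, since B2m and Bst2 carry it. The element was searched on both strands as GAAA, any 2 bases and GAAA in the promoter windows of RefSeq (GRCm38.p6), 250 bases before to 50 after the start, which were found for 12000 of the measured genes. A stretch of each promoter, from base -180 to base -81 counted from the start, is shown on the strand of the gene with the matches in capitals. That of B2m lies at chr2:122147507-122147606 on the plus strand, and that of Bst2 at chr8:71537553-71537652 on the minus strand, where 2 matches overlap.
B2m: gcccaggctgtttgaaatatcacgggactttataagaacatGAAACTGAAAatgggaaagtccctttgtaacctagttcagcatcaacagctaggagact
Bst2: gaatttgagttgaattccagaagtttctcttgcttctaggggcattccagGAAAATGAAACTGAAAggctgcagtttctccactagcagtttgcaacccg

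The element was present in 3.44% of all 32851 promoters and in those of 421 measured genes. Over all 17956 genes 1.79% were higher and 2.04% lower at an unadjusted p under 0.05. The 421 genes with the element had a median difference of 0.016. Of them 20 were higher (4.75%) and 9 lower (2.14%) at that unadjusted p, with none at the adjusted threshold. In either direction that was 6.89%, against 3.67% of the genes without the element, and B2m and Bst2, which prompted the search, are counted among the 20. Besides them the higher ones included Rsad2, an antiviral enzyme (0.34, SE 0.091), the RNA sensor Ifih1 (0.21, SE 0.073), Ifi203 (0.36, SE 0.13), Gbp3 (0.22, SE 0.089), Tgtp1 (0.38, SE 0.16) and Igtp (0.20, SE 0.088), named after their values were seen. For comparison, the E-box CACGTG through which CLOCK and BMAL1 act was in 7.15% of promoters and those of 1339 genes, of which 22 were higher (1.64%) and 35 lower (2.61%), with a median of -0.006, in all 4.26% against 3.72% without it. The D-box TTATGTAA bound by DBP was found for 83 genes, 2 higher and 2 lower (4.82%, against 3.78% without it), and the cAMP response element TGACGTCA for 399 genes, 5 higher and 7 lower (3.01%, against 3.81%). A match is a description of letters and not evidence of binding, and the set of motifs was chosen with results of these data known. The motif counts are not given without Per3-/- mice 1 and 7, where the complement, interferon and inflammation list held 0 higher genes.

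Of 24 measured genes of cholesterol and fatty acid synthesis 23 had a negative difference, the median was -0.069, and 4 were lower at an unadjusted p under 0.05. Among these were Insig1, the sterol-sensing brake of the pathway (-0.14, SE 0.043, limma unadjusted p = 0.00697), and the enzymes Mvd (-0.13, SE 0.046) and Sqle (-0.10, SE 0.043). Hmgcs1, an early enzyme of the pathway, differed by -0.08 (SE 0.047). Insig1 and Mvd kept their threshold in all 26 alternatives and Sqle in 9, and without Per3-/- mice 1 and 7 the median was -0.038 and the count 2. The summed signal of the list was 309 to 341 in WT and 302 to 332 in Per3-/- mice.

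Of 30 voltage-gated and two-pore channel genes 26 had a negative difference with a median of -0.055, and the sodium channels Scn1a (-0.17, SE 0.063) and Scn2a (-0.12, SE 0.053) had an unadjusted p under 0.05. Of 19 GABA and glycine receptor subunits 16 were negative (median -0.061), with the glycine receptor subunit Glra1 at -0.24 (SE 0.105). Of 23 glutamate receptor subunits 17 were negative (median -0.048) and none passed. In the receptors for monoamines and acetylcholine 2 of 30 genes passed, the striatal Drd1 given above and the serotonin receptor Htr1b (-0.21, SE 0.076). Without Per3-/- mice 1 and 7 Scn1a, Scn2a, Glra1, Drd1 and Htr1b each had an unadjusted p over 0.05. The medians were then -0.036 for channels, -0.028 for GABA and glycine receptors, -0.021 for glutamate receptors and -0.014 for monoamine and acetylcholine receptors, where the last was -0.036 in all mice. Ptger3, the prostaglandin receptor through which fever is raised, was higher by 0.16 (SE 0.070) among 19 genes of prostaglandin, adenosine and melatonin signalling, and by only 0.03 with normexp (limma unadjusted p = 0.717).

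Immediate early genes, which neurons switch on within minutes of being active, had positive differences in 21 of 26 cases with a median of 0.104, and none passed an unadjusted p of 0.05. Fos differed by 0.18 (SE 0.13), Fosb by 0.10 (SE 0.17) and Fosl2 by 0.35 (SE 0.19). The summed signal of the list was 61.4 to 74.2 in WT and 64.2 to 97.9 in Per3-/- mice, highest in Per3-/- mouse 7. Among 33 matrix genes Thbs4, thrombospondin 4, was higher by 0.71 (SE 0.26) and by 0.57 on its second probe, but the difference was negative on 1 of 4 slides. The protease Mmp14 was higher by 0.23 (SE 0.080; 0.17 at an unadjusted p of 0.0648 without Per3-/- mice 1 and 7) and Sparc lower by -0.11 (SE 0.042). In Wnt signalling the receptor Fzd5 was the 1 gene of 26 under the threshold, at -0.17 (SE 0.073), with its second probe at 0.05, and it did not pass without Per3-/- mice 1 and 7.

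The remaining lists gave no gene at an unadjusted p under 0.05 beyond those named. The 60 cytosolic ribosomal protein genes all differed by less than 0.08, with a median of 0.016 and a median standard error of 0.043. The 60 oxidative phosphorylation genes had a median of -0.014. Glycolysis (25 genes, median -0.023), ubiquitin ligases (34, -0.002), chromatin and DNA methylation (33, -0.001), the cell cycle (21, 0.021), growth factors (32, 0.044) and heat-shock and cold-inducible genes (24, 0.057) had none. Neither had glucocorticoid targets (17, 0.008) nor taste and olfactory genes (8, -0.013). The partners of PRDM16 and brown-fat genes, of interest because Prdm16 itself was so much lower, had a median of 0.024 over 19 genes, with Dio2 alone under the threshold and Ppargc1a differing by less than 0.01. Of the 42 list medians 21 lay above 0.

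Genes measured by several probes gave a second view. Of 6441 genes with over 1 kept probe, 60 had at least 2 probes at an unadjusted p under 0.05. These probes went in 1 direction for 57 genes, 29 higher and 28 lower, and in opposite directions for 1500004A13Rik, Otof and Tmem186. Ifi27l2a, an interferon-induced gene, was higher on 3 probes by 0.40 to 0.41, and Ifi204, a DNA sensor of the same response, by 0.46 and 0.58. Crem, a cAMP-responsive regulator, was higher by 0.19 on both probes, and Wwtr1, the Hippo pathway factor TAZ, by 0.09 and 0.12, with no overlap between the groups on the second. Lower genes included the synaptic vesicle protein Syn2 (-0.11 on both probes) and Faim2 (-0.16 and -0.11). These names were chosen after their values were seen, and probes of 1 gene share its RNA and are not independent.

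By chromosome the share of probes at an unadjusted p under 0.01 ran from 0.154% on chromosome 7 to 0.789% on chromosome 12 among the autosomes. On the kept part of chromosome 4 it was 0.753%, 11 of 1461 probes, against 0.459% over all. At an unadjusted p under 0.05 the share over all kept probes was 3.86%. In the 10 Mb just before the stretch left out 10 of 158 probes had such a p (6.33%). In the 10 Mb before that it was 9 of 267 (3.37%), Pla2g2d among them. From 20 to 40 Mb before the stretch it was 6 of 297 (2.02%), and from 40 to 150 Mb 23 of 739 (3.11%). A gene of the first window, named after its values were seen, was Zfp984, higher by 0.23 and 0.21 on 2 of its 3 probes at an unadjusted p under 0.05.

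A second tissue was the whole eye, measured in 7 WT and 7 Per3-/- mice. The paper took brain and eye from the same animals, and arrays were matched by genotype and replicate number. The eye is therefore no replication in other mice, and differences between mice can appear in both tissues. Of the kept probes 25124 were also well above background on every eye array, and none of them, or 0.0%, differed between genotypes in the eye at the adjusted threshold (limma; 2.09% had an unadjusted p under 0.05). A test of whether the genotype effect was unequal in eye and hypothalamus passed the adjusted threshold for none, or 0.0% (743, or 2.96%, at an unadjusted p under 0.05). Of the 20 hypothalamic probes of lowest p, 16 had the same sign in the eye and 3 an eye p under 0.05, which were a Noc2l probe (-0.24), Rtn4rl2 (0.34) and Slc4a9 (0.30). The share of same sign over all probes is not given, so the 16 of 20 cannot be judged. Both Noc2l probes are among the 20, although RefSeq lists Noc2l in the stretch left out. Pla2g2d differed by 0.27 in the eye (limma unadjusted p = 0.118). Of the complement, interferon and inflammation list 17 of 21 genes were positive in the eye with a median of 0.115, and 6 were higher at an unadjusted p under 0.05 and none lower, where over all 16909 genes measured in both tissues 2.15% had such a p, 1.01% higher and 1.14% lower, and 47.3% were positive. Named after their values were seen, they were C3 (0.45), B2m (0.22), Cd74 (0.28), Cd14 (0.26), C1qa (0.24) and C1qb (0.23), of which C3 and B2m were under that threshold in the hypothalamus as well. Of the microglial genes 13 of 15 were positive in the eye, with 4 higher at an unadjusted p under 0.05 and none lower. C1qa and C1qb are on both lists and are counted in each. All 6 blood genes were positive in the eye with a median of 0.357, and the part of these cells was not tested. Pdyn, Tac1 and Tac2 differed by less than 0.05 in the eye, and no gene of the feeding and arousal peptide list had an eye p under 0.05.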

How the data were processed

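Total RNA of 16 hypothalamic blocks was labelled with Cy3 and hybridised to Agilent 60-mer arrays, 1 per mouse. The authors extracted the spots with Feature Extraction, and the deposited processed intensity of each spot is background-subtracted on a linear scale. A second table deposited by the authors holds log2 values scaled to that percentile and centred on each probe's median, and it served as an alternative (99.97% of its values lay within 0.01 of the recomputed ones).

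Intensities were taken to log2 and the array's 75th percentile was subtracted. The 849 spots marked uneven or outlier were left out, which left 33 probe values missing. Genotypes were compared with limma 3.58.1 (R 4.3.3) with 4 slides of 4 arrays, 2 per genotype, as a fixed block. Each slide was scanned once, so slide and scan are the same term, and 355 kept probes (1.31%) had a slide effect at an adjusted p under 0.05. P-values were two-sided and adjusted by Benjamini-Hochberg over all 41174 probes. The difference from the eye was fitted over 30 arrays, each mouse being a random block with a correlation of 0.053. Exact permutation tests kept slides fixed. The procedure was tested on simulated data. Python 3.11.15 was used elsewhere (numpy 2.4.6, pandas 2.3.3, scipy 1.17.1, matplotlib 3.10.9).

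Probes were named through RefSeq by accession (26910), symbol (5088) or synonym (816), otherwise as in the array files (8360). Named were all probes at an adjusted p under 0.05, the 10 of lowest p and the 5 of largest fold in each direction, and in each list the first 3 measured genes and all at an unadjusted p under 0.05. Other names carry a remark. A few genes that this rule names are not reported here. The members, the lists and the tests were chosen with earlier results of these data known. The alternatives were no slide block, a replicate block, quantile and array-median scaling, normexp (offset 50), other filters, a moderated trend, the methods' t-test, the authors' second table, and leaving out arrays. The number of arrays limits the precision.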

Additional observations from a re-analysis of the deposited data

Results flagged for a closer look

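Of 90 groups of 8 values tested, 10 had a mouse that lay far from the other 7 by Dixon's criterion. Chance gives about 1 in 20 for groups not chosen by their values. The groups here include probes named for large folds, which 1 far mouse can produce, so the count cannot be judged against that rate. Ccn4, Adora2a, Sln, Doc2g, AF152371 and Jchain were named in this way. Per3-/- mouse 7 stood apart 5 times. It was highest for the second Noc2l probe at 1.01 (next 0.89), for Ccn4 at -0.125 (next -3.16), for Adora2a at -1.97 (next -3.08), for Doc2g at 2.76 (next -2.65) and for the summed GABAergic signal at 174 (next 132). The summed pituitary signal was 1054 in Per3-/- mouse 1 and 91.7 in the next Per3-/- mouse. WT mouse 6 was highest for AF152371 at 1.39 (next -3.16) and for Jchain at 0.207 (next -4.71). WT mouse 2 was lowest for Sln at -3.57 (next -2.17), and WT mouse 3 was highest for Gm7104 at -3.76 (next -3.87).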

How the results depend on the processing

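In the alternatives, 39 of 39 list genes at an unadjusted p under 0.05 kept their sign throughout. Of 183 named probes 61 took the other sign in at least 1 alternative, and 0 of these had an unadjusted p under 0.05. The alternatives reuse most of the arrays that gave these p-values, so both results were likely from the start and add no support. The 5 probes at the adjusted threshold became 1 with the replicate number as a block (Rtn4rl2) and 2 with normexp (both Noc2l probes). RefSeq lists Noc2l in the stretch left out, so with normexp no probe outside that stretch passed. The count was 3 without Per3-/- mice 1 and 7 (chosen after seeing the data), 3 to 5 with 1 array left out, and 4 to 6 under the other alternatives. Each count of 3 or more includes at least 1 Noc2l probe. The 1042 probes at an unadjusted p under 0.05 became 658 without Per3-/- mice 1 and 7, and 701 to 1785 with 1 array left out, the highest without Per3-/- mouse 5. Under the replicate block they were 875. Replicate numbers did not pair the mice: same-numbered deviations correlated at -0.205 to 0.396, and 1 of 8 mice correlated best with its own number. Without the slide block the counts were 5 and 801, with quantile scaling 4 and 1211, with the array median 6 and 929, and with normexp the unadjusted count was 1352. For the difference from the eye the count at the adjusted threshold was 0 in each fit, with 743, 497, 760 and 427 probes at an unadjusted p under 0.05 (as reported, no slide block, quantile, and mouse as a fixed or replicate block). Signal over background limits the dimmest kept probes most, and the causes were not tested.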
